A study of Mus musculus with 6 samples.

Results

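Integrins are the cell surface receptors by which cells hold on to the extracellular matrix, and laminins are among the main matrix proteins they bind. In the table of cultured mouse ovary RNA, 35 of 26329 genes carried the name of an integrin subunit or a laminin chain. They were taken by symbol alone, with earlier results of these data known. The integrin symbols were Itga followed by digits, Itgb1 to Itgb8, Itgav, Itgal, Itgam, Itgax and Itgae (24 genes). Those of laminins were Lama, Lamb or Lamc followed by a single digit (11 genes). Symbols had to match in full, so Itga2b and the integrin-binding protein gene Itgb1bp1 were outside the set.

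An integrin is a pair of an alpha and a beta subunit that spans the membrane, with a large outer part that binds matrix and a short inner tail that connects to actin through adaptors such as talin. A laminin is a cross-shaped trimer of an alpha, a beta and a gamma chain, assembled inside the cell and secreted as a trimer. Laminins polymerise into the sheet of the basement membrane, where nidogen, perlecan and type IV collagen join them. In the ovary such a membrane encloses every follicle from the primordial stage on, separates granulosa cells from stroma, and also lies under the surface epithelium and around blood vessels.

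RNA was sequenced from 6 libraries of whole cultured ovary, 3 kept in the solvent DMSO (Control) and 3 in DMSO with ISRIB. ISRIB binds the initiation factor eIF2B and so relieves the block on protein synthesis set by the integrated stress response. By its title, the series asks if primordial follicles are activated through mTOR when this response is inhibited. Dose, culture time, strain and age of the cultured ovaries, and whether the replicates came from separate animals, are not stated in the labels. The design text names newborn ICR mice for the injected animals of the study only. The p-values therefore rest on the spread of these libraries alone, which may be technical. Values are FPKM as deposited (fragments per kilobase of transcript, scaled to library depth), which allow levels of different genes to be compared per length. The labelled tissue matched its markers: the granulosa cell factor Foxl2 was at 137 to 163 FPKM and the oocyte coat gene Zp3 at 361 to 466 FPKM.

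Whole reads worked back from the FPKM totalled 34474821 to 38002135 a library, and members averaging 1 FPKM or more had 128 to 31574 reads in a library. Of the 35 members, 24 reached that mean and were tested (15 integrins and 9 laminins). The test was limma on log2(FPKM + 0.5) over all 12922 genes at that level, and every fold change below is ISRIB minus Control on that log2 scale, which understates changes of low genes.

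No member had a limma adjusted p under 0.05, nor did any other of the 12922 tested genes (0%). Of these genes 2125 had an unadjusted p under 0.05, and limma's voom on the whole reads called 120. The tested members were nearly all lower in ISRIB. In 23 of 24 the fold change was below 0, as it was in 48.2% of all tested genes, and the exception was Itga4. Their median fold change was −0.11, beside 0.01 over all tested genes. At an unadjusted p under 0.05, 6 members were lower and 0 were higher, beside 7.73% lower and 8.71% higher among all tested genes. The 6 were Lamc1 and Lama1 among the laminins and Itga3, Itga6, Itgav and Itgb1 among the integrins. The 3 ISRIB libraries all lay below the 3 Control libraries in 7 of the 24 members, beside 12.0% of all tested genes, and all above in 0, beside 10.8%.

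The members are long genes, and in these libraries long genes as a whole were lower in ISRIB. The length implied by the FPKM and the reads was 6130 bases at the median of the tested members and 3549 bases at the median of all tested genes. Across all tested genes the Spearman rho of fold change and length was −0.361, over genes that are not independent replicates. With this trend removed from each library, 19 of 24 members stayed below 0, beside 47.1% of all tested genes, and the median was −0.07, beside 0.01. At an unadjusted p under 0.05 there were then 2 members, Lamc1 and Lama1, both lower, beside 5.92% of all tested genes.

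**Figure D1:**
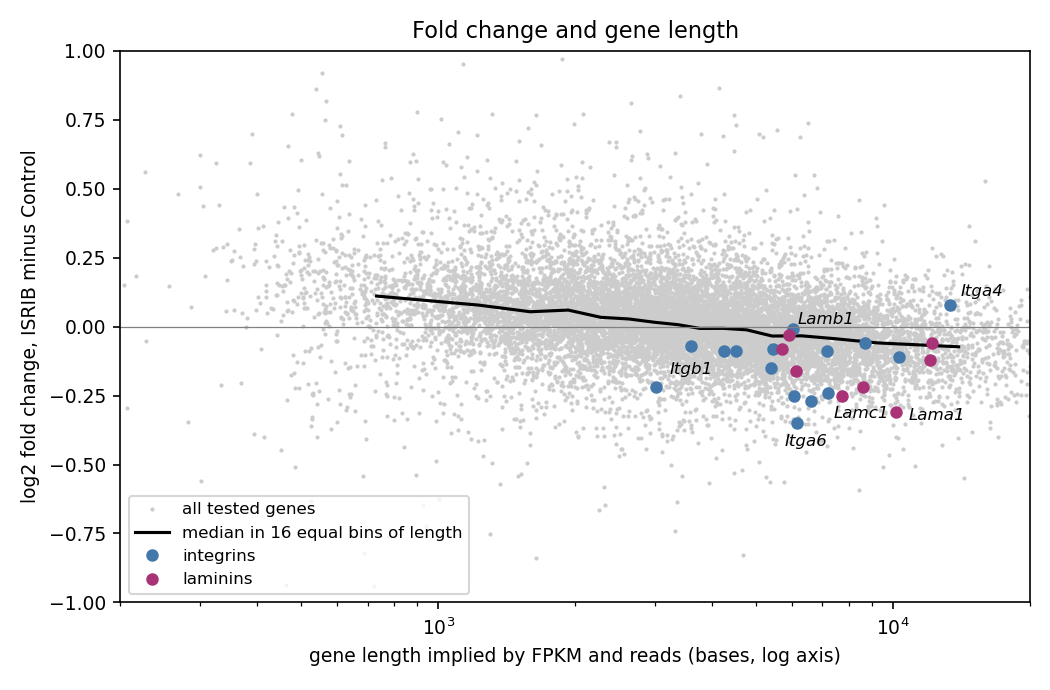
Fold change (vertical axis, log2, ISRIB minus Control) against implied gene length in bases (horizontal log axis) for the 12922 tested genes (grey, of which 152 lie outside the axes), integrins (blue) and laminins (purple); the black line joins medians of 16 equally filled length bins. Most of the 23 members shown lie toward the long end, and Lamc1, Lama1 and Itga6 lie under the line.

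Of the 6 members at an unadjusted p under 0.05, Itgb1 and Itgav encode subunits that pair with each other. In both the groups did not overlap, and neither did they in Lamc1, Lama1 and Itga3. RefSeq's promoter table (GRCm38.p6) held 22 of the 35 members, in 25 windows, with no entry for Lamc1, Lama1 and Itga6. For Itgb1 and Itgav the window lies wholly upstream of the GENCODE gene, and the 250 bases before the start are shown, 5′ to 3′, so that the sequence can be read beside the values. Capitals mark a GC box, GGGCGG, in Itgb1.
Itgb1 (chr8:128685404-128685653, plus strand): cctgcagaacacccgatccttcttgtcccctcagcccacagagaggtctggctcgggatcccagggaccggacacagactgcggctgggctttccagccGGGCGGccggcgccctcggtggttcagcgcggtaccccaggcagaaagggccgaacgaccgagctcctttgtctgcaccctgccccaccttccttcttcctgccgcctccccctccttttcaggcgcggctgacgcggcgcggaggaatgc
Itgav (chr2:83724147-83724396, plus strand): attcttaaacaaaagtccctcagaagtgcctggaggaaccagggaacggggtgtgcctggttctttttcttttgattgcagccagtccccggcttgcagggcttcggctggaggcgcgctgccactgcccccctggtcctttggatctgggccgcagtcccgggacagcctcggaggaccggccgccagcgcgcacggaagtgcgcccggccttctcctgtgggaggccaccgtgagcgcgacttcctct

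G and C made up 68.0% of the Itgb1 window and 64.4% of the Itgav window. The GC box GGGCGG was found once in Itgb1 and in 0 places in Itgav on either strand. Over all members with an entry, 9 of 25 windows held it, beside 32.7% of all 32851 windows of the same length. The CCAAT box CCAAT was in 4 of 25 (33.8% of all windows) and the TATA box TATAAA in 0 of 25 (12.4% of all windows), each searched on both strands, and none of these motifs contains another. Neither CCAAT nor TATAAA was in the windows shown.

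Among the laminin gamma chains, Lamc1 was the most abundant, and of all members it had the smallest p. It encodes the gamma1 chain, the gamma chain of most laminins and the one that carries the binding site for nidogen (chromosome 1, 153218922 to 153332786, minus strand, GRCm38). Its level was 94.9, 97.6 and 94.5 FPKM in Control and 80.4, 81.7 and 79.2 FPKM in ISRIB. The libraries of each group lay close together and the groups were well apart. From 95.7 ± 1.67 to 80.4 ± 1.20 FPKM (mean ± SD, n = 3 each) the fold change was −0.25 (SE 0.0370, 95% interval −0.33 to −0.16, limma adjusted p = 0.0799). Over the alternatives run, the fold change was −0.30 to −0.19 and the adjusted p 0.0259 to 0.280. It passed in 1 of them, limma's voom on the whole reads (adjusted p = 0.0259), where 0.929% of all tested genes passed. With the length trend removed the fold change was −0.19 (adjusted p = 0.172, and 0.104 in voom). In the bulk tissue measured here, fewer cells that make a transcript and less of it per cell cannot be told apart.

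Lamc3 was far lower in level, at 2.90, 3.65 and 3.65 FPKM in Control and 2.45, 3.06 and 3.07 FPKM in ISRIB. The groups overlapped, and the fold change was −0.22 (95% interval −0.49 to 0.06, limma adjusted p = 0.403), and −0.13 without ISRIB replicate 1.

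The beta chains that were tested overlapped between the groups. Lamb1, which encodes the beta1 chain that sits beside gamma1 in the commonest laminins (chromosome 12, 31265234 to 31329644, plus strand), was the most abundant laminin gene, at 136, 133 and 138 FPKM in Control and 126, 132 and 140 FPKM in ISRIB. The highest and the lowest library both belonged to ISRIB. Its fold change was −0.03 (95% interval −0.14 to 0.08, limma adjusted p = 0.762), and 0.01 with the length trend removed. Lamb2, the beta2 chain of vascular and neuromuscular basement membranes, was at 39.4, 36.8 and 34.9 FPKM in Control and 33.2, 36.1 and 35.6 FPKM in ISRIB, overlapping, with a fold change of −0.08 (adjusted p = 0.526), and −0.04 without Control replicate 1 or without ISRIB replicate 1. Lamb3, a beta chain of epithelial laminin, was at 0.140, 0.146 and 0.260 FPKM in Control and 0.160, 0.169 and 0.123 FPKM in ISRIB and was not tested.

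Because Lamb1 and Lamc1 products join the same trimers, their ratio was computed in each library after both had been seen. Lamc1 FPKM over Lamb1 FPKM was 0.697, 0.733 and 0.683 in Control and 0.637, 0.617 and 0.566 in ISRIB. Every ISRIB library lay below every Control library. The means were 0.704 ± 0.0257 and 0.607 ± 0.0367 (SD), and the two-sided exact permutation p was 0.1, the smallest that 3 against 3 libraries can give. Of the 3 ratios computed it had the smallest p, and adjusted over them it was 0.3. The ratios of Itga6 to Itgb1 and of Lama1 to Lama2 overlapped between the groups (exact permutation p = 0.3 and 0.5).

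Among the laminin alpha chains, Lama1 was lower in ISRIB with a wider spread between replicates than Lamc1. The alpha1 chain is typical of embryonic basement membranes (chromosome 17, 67697259 to 67822647, plus strand). It was at 40.7, 36.5 and 34.3 FPKM in Control and 30.0, 32.8 and 26.7 FPKM in ISRIB. The groups did not overlap, though the lowest Control library and the highest ISRIB library were close to each other. The means were 37.2 ± 3.23 and 29.8 ± 3.05 FPKM (SD, n = 3 each). The fold change was −0.31 (SE 0.0868, 95% interval −0.51 to −0.11, limma adjusted p = 0.150, and 0.0855 in voom), and −0.25 with the length trend removed.

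The next alpha chains in level overlapped between the groups. Lama2, the alpha chain of muscle and nerve basement membranes, was at 25.2, 28.3 and 27.9 FPKM in Control and 22.8, 25.5 and 26.7 FPKM in ISRIB, a fold change of −0.12 (limma adjusted p = 0.443), and −0.06 without ISRIB replicate 1. Lama4, made by endothelial and mesenchymal cells, was at 23.5, 25.0 and 28.8 FPKM in Control and 22.4, 23.8 and 22.6 FPKM in ISRIB, a fold change of −0.16 (adjusted p = 0.335). In Lama4 only ISRIB replicate 2 lay within the Control range, and without Control replicate 3 the fold change was −0.08. Lama5, the alpha chain found in most adult epithelial and vessel membranes, was at 7.43 ± 0.339 and 7.15 ± 0.995 FPKM (fold change −0.06, adjusted p = 0.805).

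Below the level tested was Lama3, an alpha chain of epithelial laminin, at 0.454, 0.640 and 0.508 FPKM in Control and 0.360, 0.430 and 0.314 FPKM in ISRIB, with no overlap. Of the summed laminin alpha FPKM, Lama1 took 34.6% to 41.8% in Control and 31.6% to 36.9% in ISRIB, which overlap, and Lama2 and Lama4 took most of the rest. The alpha class summed to 97.3, 97.6 and 99.4 FPKM in Control and 82.5, 88.8 and 84.5 FPKM in ISRIB.

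**Figure D2:**
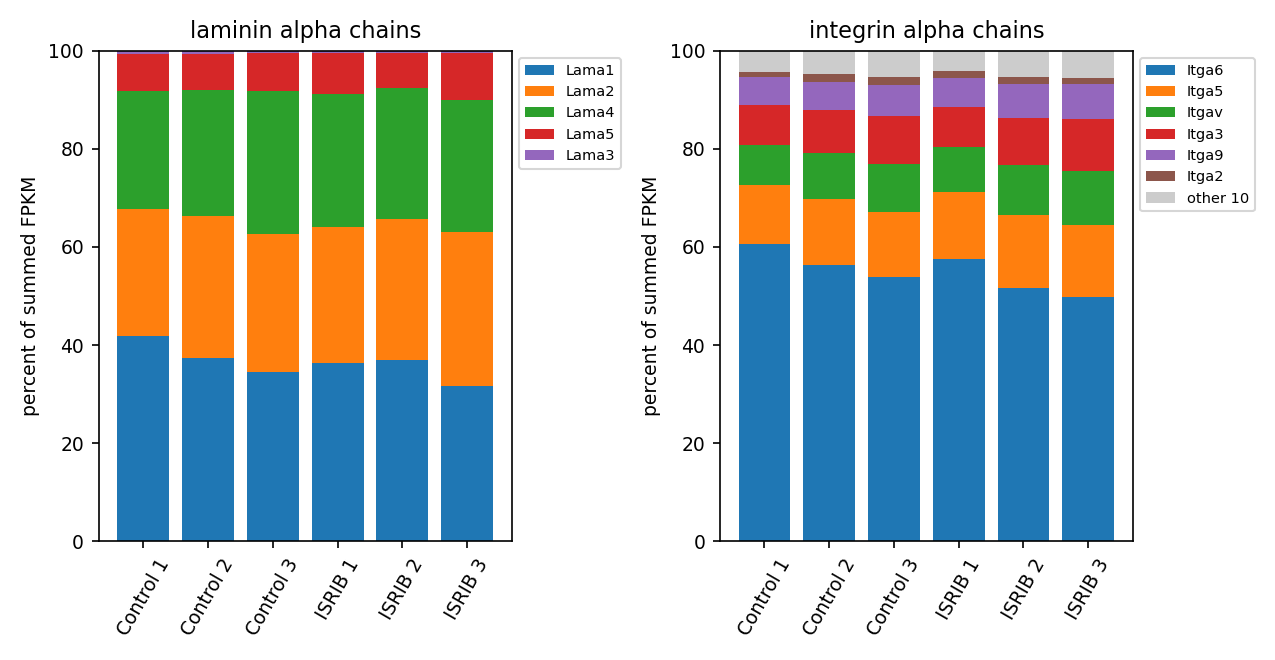
Percent of the summed FPKM of all laminin alpha genes (left) and all integrin alpha genes (right) taken by each chain, one bar per library. Lama1, Lama2 and Lama4 make up most of each left bar, and Itga6 alone takes 49.7% to 60.5% of each right bar, with the groups overlapping.

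Of the partners of laminins in the basement membrane, the 4 with the smallest p were Nid1, Dag1, Fras1 and Hspg2, all lower in ISRIB. Nid1 encodes nidogen-1, the linker between the gamma1 chain and type IV collagen. It was at 149, 153 and 151 FPKM in Control and 122, 132 and 126 FPKM in ISRIB, with no overlap. Dag1 encodes dystroglycan, a laminin receptor outside the integrin family, and was at 184, 189 and 176 FPKM in Control and 144, 157 and 147 FPKM in ISRIB, also with no overlap. Their fold changes were −0.25 and −0.29 (limma adjusted p = 0.0832 for both), and in voom on the whole reads they passed with adjusted p values of 0.0297 and 0.0259. With the length trend also removed in voom neither passed (adjusted p = 0.104 and 0.0812).

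Hspg2 encodes the proteoglycan perlecan. It was at 142, 136 and 154 FPKM in Control and 118, 118 and 129 FPKM in ISRIB (fold change −0.25, limma adjusted p = 0.119). Fras1, a matrix protein at the epithelial side of basement membranes, was at 11.2, 12.2 and 12.0 FPKM in Control and 8.93, 9.81 and 9.23 FPKM in ISRIB (−0.33, adjusted p = 0.0987, 0.0259 in voom, and 0.144 in voom with the length trend removed). Neither overlapped between groups. Over the whole list of basement membrane partners, which holds type IV collagens and other linkers, 18 of the 20 tested genes were lower and 2 higher. In 11 of the 20 all ISRIB libraries lay below all Control libraries, beside 12.0% of all tested genes. The median was −0.15, and −0.08 with the length trend removed. At an unadjusted p under 0.05, 9 were lower and 1 higher, beside 7.73% and 8.71% of all tested genes, and 0 had an adjusted p under 0.05. With the length trend removed 16 of the 20 were lower. At that unadjusted p 7 were then lower and 1 higher, beside 765 and 952 of the 12922 tested genes. The gene that was higher was Smoc2, a calcium-binding matrix protein, with 14.5, 18.1 and 24.5 FPKM in Control and 23.0, 28.2 and 36.2 FPKM in ISRIB, which overlap (fold change 0.61, adjusted p = 0.215); it was named after its values were seen. Nid2, the close relative of Nid1, had a fold change of −0.03 (adjusted p = 0.830).

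**Figure D3:**
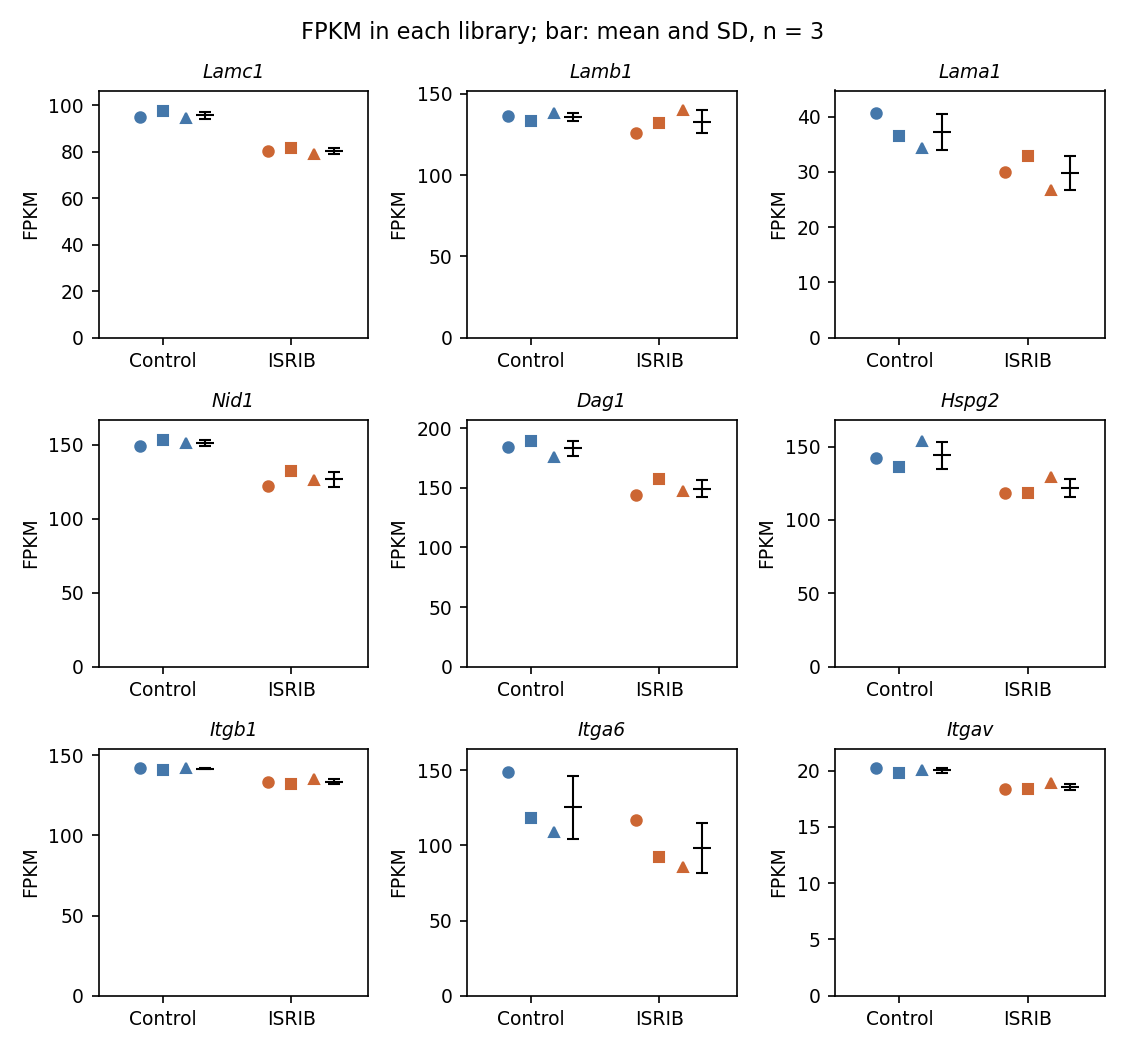
FPKM (vertical axes, from 0) in each of the 3 Control (blue) and 3 ISRIB (orange) libraries for 3 laminin chains (Lamc1, Lamb1, Lama1), 3 laminin-binding partners (Nid1, Dag1, Hspg2) and 3 integrin subunits (Itgb1, Itga6, Itgav); symbols mark the replicate numbers 1 to 3 and the bars give mean and SD. The groups separate in Lamc1, Lama1, Nid1, Dag1, Hspg2, Itgb1 and Itgav and overlap in Lamb1 and Itga6.

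Endothelial markers were lower beside these genes. All 9 of 9 endothelial markers were lower in ISRIB, beside 48.2% of all tested genes. Their summed level was 208 to 228 FPKM in Control and 176 to 204 FPKM in ISRIB, and none was at 0. At an unadjusted p under 0.05, 4 were lower and 0 higher, beside 7.73% and 8.71% of all tested genes. With the length trend removed 6 were lower at that p, beside 5.92%, and 0 had a limma adjusted p under 0.05 in the main test. Of the 9 pericyte and smooth muscle markers 5 were lower and 4 higher, with sums of 87.9 to 95.5 and 86.0 to 92.2 FPKM. At an unadjusted p under 0.05 they went both ways: the pericyte markers Pdgfrb and Cspg4 had fold changes of −0.33 and −0.30 (limma adjusted p = 0.0799 and 0.111), and the smooth muscle markers Tagln and Acta2 of 0.26 and 0.21 (adjusted p = 0.201 and 0.299). The groups did not overlap in Pdgfrb, Cspg4 and Tagln. All 6 tested of 7 surface epithelium markers were lower, 0 of them at an unadjusted p under 0.05, with sums of 227 to 290 and 227 to 235 FPKM. The sums for granulosa, stroma and oocyte markers were 541 to 633, 389 to 424 and 683 to 764 FPKM in Control and 592 to 713, 399 to 462 and 757 to 833 FPKM in ISRIB. Single markers were split: 4 of 7, 2 of 5 and 4 of 7 were higher and the others lower. Most of the stroma sum was Dcn and most of the oocyte sum Zp3. At an unadjusted p under 0.05, Inha, Zp3 and Gdf9 were higher and Kitl and Pdgfra lower, beside 8.71% and 7.73% of all tested genes. The part of these cell types in the laminin and integrin values was not tested.

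Of the integrin beta subunits, Itgb1 was the most abundant, and its replicates lay close together. It encodes beta1, the common partner of most alpha subunits (chromosome 8, 128685654 to 128733200, plus strand). It was at 142, 141 and 142 FPKM in Control and 133, 132 and 135 FPKM in ISRIB, and every ISRIB library lay below every Control library. The difference was small, from 141 ± 0.453 to 133 ± 1.70 FPKM (SD, n = 3 each). The fold change was −0.09 (SE 0.0348, 95% interval −0.17 to −0.01, limma adjusted p = 0.278), and −0.07 with the length trend removed (adjusted p = 0.416).

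Itgb5 and Itgb3, which pair with alphav to bind vitronectin and other matrix proteins, were next in level. Itgb5 was at 43.8, 39.5 and 38.1 FPKM in Control and 39.0, 37.2 and 39.4 FPKM in ISRIB, a fold change of −0.07 (limma adjusted p = 0.595), and −0.01 without Control replicate 1. Itgb3 was at 6.21, 6.21 and 7.13 FPKM in Control and 6.14, 6.11 and 7.19 FPKM in ISRIB, a fold change of −0.01 (95% interval −0.21 to 0.19, adjusted p = 0.966). Both overlapped between the groups. Itgb8, which with alphav releases latent TGF-beta, had 2.21 ± 0.247 and 2.09 ± 0.0197 FPKM (fold change −0.06, adjusted p = 0.794).

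Itgb2, the beta subunit of leukocytes, had all ISRIB libraries below Control at 1.80, 1.49 and 1.62 FPKM against 1.18, 1.46 and 1.35 FPKM, with a fold change of −0.22 (limma adjusted p = 0.362). The remaining beta genes were too low to test. Itgb4, the hemidesmosome subunit that pairs with alpha6, was at 0.226 to 0.468 FPKM. The lymphocyte subunit Itgb7 had 9 to 37 reads a library. The epithelial subunit Itgb6 had at most 7 reads in any library and 0 in 3 of them. The order of the tested beta genes by level, Itgb1 over Itgb5 over Itgb3 over Itgb8 over Itgb2, was the same in all 6 libraries.

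Among the integrin alpha subunits, Itga6 was by far the most abundant, with a fold change of −0.35 and a wide spread. It encodes alpha6, a laminin receptor subunit found on epithelial, endothelial and germ cells (chromosome 2, 71745616 to 71858416, plus strand). It was at 149, 118 and 109 FPKM in Control and 117, 92.0 and 85.4 FPKM in ISRIB. Control replicate 1 was the highest of all, and ISRIB replicate 1 lay within the Control range, so the groups overlapped. The means were 125 ± 21.0 and 98.1 ± 16.7 FPKM (SD, n = 3 each). That fold change (SE 0.140, 95% interval −0.68 to −0.03, limma adjusted p = 0.270) was −0.22 without Control replicate 1 and −0.49 without ISRIB replicate 1, where the adjusted p was 0.125.

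Control replicate 1 was also the highest library for Lama1, and for the surface epithelium keratins Krt8 (74.7, 50.7 and 45.6 FPKM in Control, 52.5, 46.6 and 46.3 FPKM in ISRIB) and Krt18 (50.9, 32.2 and 29.2 FPKM in Control, 36.9, 30.2 and 29.4 FPKM in ISRIB). Other markers of the surface epithelium list showed a smaller step or none. Krt19 was at 101 FPKM in Control replicate 1 and 91.0 to 97.5 FPKM in the other libraries. Upk3b was at 47.0 and 40.5 to 46.7 FPKM, and Msln at 7.95 and 5.15 to 6.96 FPKM. Lhx9 was at 7.38 FPKM in both Control replicate 1 and ISRIB replicate 3. The part of surface epithelium in that library was not tested. Without Control replicate 1 the Lama1 fold change was −0.25.

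Itgav and Itga3 were lower in every ISRIB library by a small step. Itgav encodes alphav, which binds matrix proteins with the RGD sequence (chromosome 2, 83724397 to 83806916, plus strand), and was at 20.2, 19.8 and 20.1 FPKM in Control and 18.4, 18.4 and 18.9 FPKM in ISRIB. Its fold change was −0.11 (SE 0.0433, limma adjusted p = 0.278), and −0.04 with the length trend removed. Itga3, which pairs with beta1 to bind laminins (chromosome 11, 95044474 to 95076801, minus strand), was at 20.0, 18.2 and 19.7 FPKM in Control and 16.7, 17.0 and 18.2 FPKM in ISRIB. Its fold change was −0.15 (SE 0.0568, adjusted p = 0.242), and −0.12 with the length trend removed. The highest ISRIB library of Itga3 nearly reached the lowest Control library. A noncoding gene on the opposite strand, Gm13684, shares up to 634 bases of exon with Itgav, and the labels do not say whether the counting used strand. Annotated exons of another gene also lie on 10 other members, Lama2, Lamc3, Itga1, Itga4 and Itga8 among those tested, and on none of Lamc1, Lama1, Itga6, Itga3, Itgb1 and Lamb1.

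The fibronectin receptor subunit Itga5 was at 29.9, 27.9 and 26.8 FPKM in Control and 28.0, 26.3 and 25.2 FPKM in ISRIB. The groups overlapped, and the fold change was −0.09 (95% interval −0.22 to 0.05, limma adjusted p = 0.494), and −0.05 without Control replicate 1 or without ISRIB replicate 3. Itga9, a tenascin receptor subunit, had 13.0 ± 0.935 and 12.1 ± 0.168 FPKM and a fold change of −0.09 (adjusted p = 0.493), and −0.04 without Control replicate 1. The collagen receptor subunits Itga1, Itga2 and Itga11 were at 1.68 to 3.28 FPKM over all libraries, with fold changes of −0.25, −0.24 and −0.08 (adjusted p = 0.322, 0.335 and 0.762). Itga8, the nephronectin receptor subunit of mesenchyme, was at 1.96, 1.70 and 2.10 FPKM in Control and 1.59, 1.69 and 1.24 FPKM in ISRIB, with no overlap (fold change −0.27, adjusted p = 0.323, and −0.18 without ISRIB replicate 3). Itga4, which binds VCAM1 and fibronectin, was the member above 0, at 1.68 ± 0.353 and 1.80 ± 0.339 FPKM (fold change 0.08, adjusted p = 0.833, and −0.05 without Control replicate 1). Cerkl on the opposite strand shares up to 905 bases of exon with it.

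In level, Itga6 was followed by Itga5, Itgav, Itga3 and Itga9. Itgav and Itga3 were close in Control, at 20.0 ± 0.217 and 19.3 ± 0.952 FPKM (SD, n = 3 each), with Itgav the higher in every library. Among the laminin alpha genes Lama2 and Lama4 were also close in Control, at 27.1 ± 1.68 and 25.8 ± 2.75 FPKM. Lama4 was the higher of them in Control replicate 3 only. The subunits of leukocytes were low. Itgam, of macrophages and granulocytes, was at 0.722, 0.723 and 0.627 FPKM in Control and 0.493, 0.435 and 0.627 FPKM in ISRIB, with 76 to 130 reads a library and the nearest libraries of the 2 groups alike to 3 digits. Itgax, of dendritic cells and some macrophages, was at 0.602, 0.397 and 0.606 FPKM in Control and 0.343, 0.229 and 0.307 FPKM in ISRIB, with 37 to 101 reads and no overlap.

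Itgal, the lymphocyte subunit, was at 0.333 to 0.456 FPKM and Itgae, which binds E-cadherin, had 1 to 9 reads. Itga10, a collagen receptor of cartilage, and Itga7, a laminin receptor of muscle, were at 0.232 to 0.603 FPKM, with the groups overlapping in each. Of the 9 tested leukocyte markers 6 were lower and 3 higher in ISRIB, beside 48.2% lower among all tested genes. At an unadjusted p under 0.05, 1 was lower and 1 higher, beside 7.73% and 8.71%. With the length trend removed 7 of the 9 were lower, beside 47.1%. At that p 2 were then lower and 0 higher, beside 765 and 952 of the 12922 tested genes. The sum over 10 leukocyte markers was 46.4 to 52.8 FPKM in Control and 45.5 to 51.5 FPKM in ISRIB, with none at 0. The macrophage receptor Csf1r was at 4.39, 4.81 and 4.47 FPKM in Control and 3.51, 3.29 and 3.54 FPKM in ISRIB (fold change −0.36, limma adjusted p = 0.101), while Fcer1g was at 5.27, 6.29 and 6.16 FPKM in Control and 7.93, 7.05 and 6.82 FPKM in ISRIB. The Fcer1g fold change was 0.28 (limma adjusted p = 0.194), and 0.16 with the length trend removed. Of the 4 T cell markers Cd3d, Cd3e and Cd3g were at 0 in at least 1 library. The part of leukocyte number in the values of Itgb2, Itgam and Itgax was not tested.

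**Figure D4:**
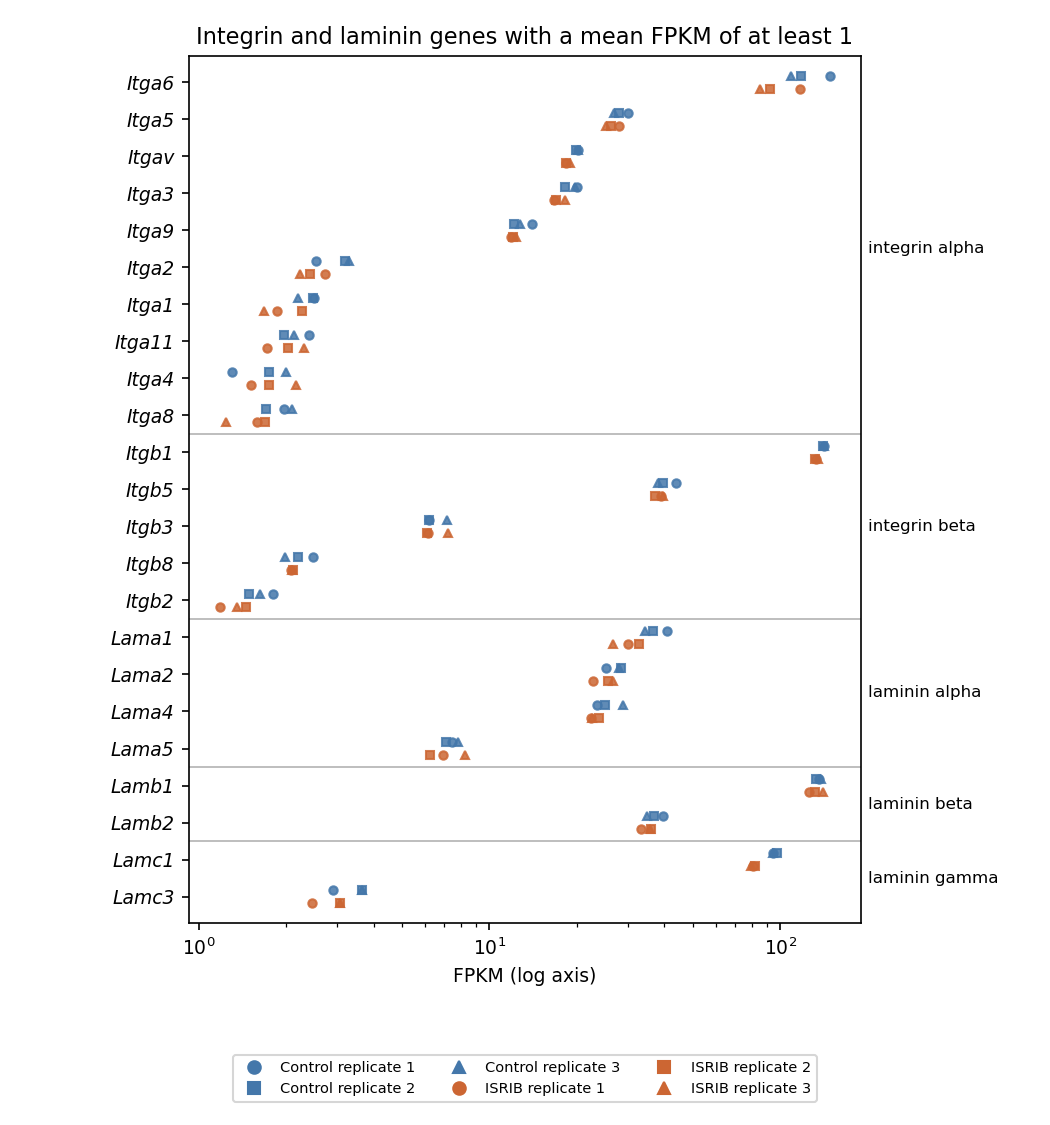
FPKM (log axis) of 23 of the 24 tested members in each library, Control in blue above ISRIB in orange, grouped by class and ordered by mean. Itga6, Itgb1, Lamb1 and Lamc1 lead their classes, while Itga4 is the only member shown with a higher mean in ISRIB.

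Most of the adaptors and kinases at integrin tails were lower, many of them by small steps. Of 26 tested genes 21 were lower and 5 higher, beside 48.2% lower among all tested genes, with a median of −0.06. At an unadjusted p under 0.05, 8 were lower and 0 higher, beside 7.73% and 8.71% of all tested genes. With the length trend removed 4 were left, all lower, beside 5.92% of all tested genes lower at that p. They were Tns3, Flna, Tns2 and Tln1. Tns3 encodes tensin-3, which binds beta tails, and was at 36.0, 35.6 and 32.8 FPKM in Control and 28.8, 29.4 and 25.5 FPKM in ISRIB (fold change −0.31, limma adjusted p = 0.104, 0.0455 in voom, and 0.127 in voom with the length trend removed). Tln1, the talin that activates integrins, was at 50.7, 49.1 and 48.3 FPKM in Control and 43.1, 42.6 and 45.9 FPKM in ISRIB (−0.17, adjusted p = 0.141). Flna, the actin crosslinker filamin A, and Tns1, tensin-1, had fold changes of −0.18 and −0.17 (adjusted p = 0.121 and 0.219). With the length trend removed Tns1 was at −0.09. In Tns3, Tln1, Flna and Tns1 the groups did not overlap. All ISRIB libraries lay below all Control libraries in 10 of the 26 tested genes, beside 12.0% of all tested genes. Tns2, another tensin gene, had a fold change of −0.21 (limma adjusted p = 0.23), and −0.18 with the length trend removed. Its groups overlapped. The kinases Ilk and Ptk2 had fold changes of −0.02 and −0.04 and the kindlin Fermt2 of 0.02 (adjusted p = 0.879, 0.810 and 0.871), and were named after their values were seen.

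Ligands of integrins outside the basement membrane were split in direction. Of 23 tested genes 12 were lower and 11 higher, with a median of −0.00. At an unadjusted p under 0.05, 3 were lower and 0 higher, beside 7.73% and 8.71% of all tested genes. They were the collagen gene Col3a1 (573, 546 and 556 FPKM in Control and 504, 525 and 513 FPKM in ISRIB), Emilin1 (75.7, 71.9 and 75.9 FPKM, and 67.9, 69.7 and 70.4 FPKM) and Nrros, which anchors latent TGF-beta on macrophages (1.67, 1.39 and 1.78 FPKM, and 1.10, 1.26 and 1.15 FPKM). Their fold changes were −0.12, −0.10 and −0.33 (limma adjusted p = 0.216, 0.271 and 0.220). Tgfb1, whose latent form binds alphav integrins, had a fold change of −0.12 (adjusted p = 0.349). With the length trend removed 3 ligand genes were again lower at an unadjusted p under 0.05, beside 5.92% of all tested genes. Col3a1 and Emilin1 were no longer among them, and Tgfb1 and Icam2, an endothelial adhesion protein, were (fold changes then −0.15 and −0.24). Fibronectin, Fn1, had a fold change of −0.06 (adjusted p = 0.668).

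All 4 tested hemidesmosome genes were lower, beside 48.2% of all tested genes, with a median of −0.09 (−0.17 without Control replicate 3). Of the 4, 1 had an unadjusted p under 0.05, beside 7.73% lower among all tested genes. It was the linker Plec, at 22.0, 18.7 and 18.5 FPKM in Control and 16.2, 17.6 and 17.0 FPKM in ISRIB (fold change −0.21, limma adjusted p = 0.225, −0.12 with the length trend removed, and −0.13 without Control replicate 1). Dst, Cd151 and Krt14 had fold changes of −0.09, −0.08 and −0.01 (adjusted p = 0.559, 0.642 and 0.981), and the basal keratin Krt5 was at 0 to 0.0354 FPKM.

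**Figure D5:**
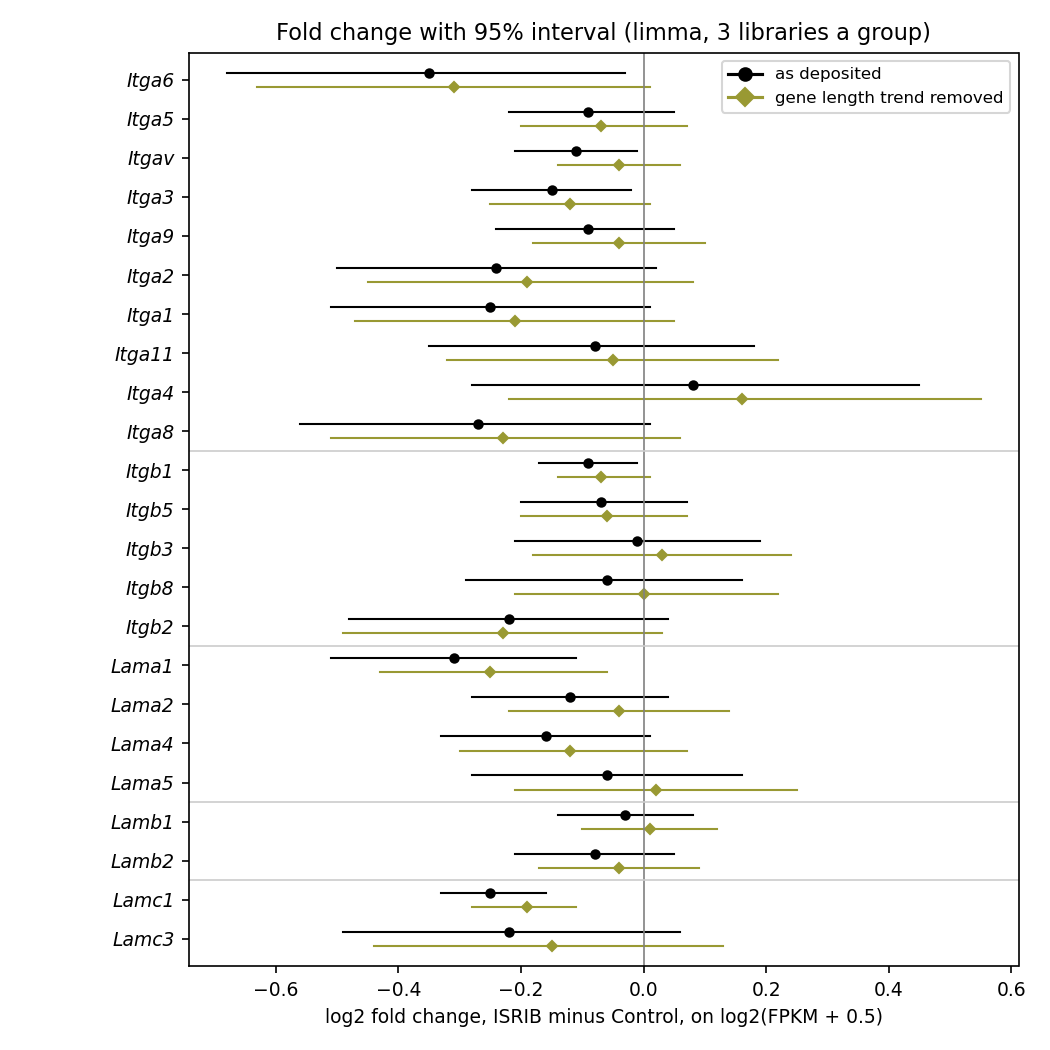
Fold change (log2, ISRIB minus Control, horizontal axis) with 95% interval for 23 of the 24 tested members, as deposited (black) and with the gene length trend removed (olive). The intervals of Lamc1 and Lama1 lie below 0 in both, and those of Itga3, Itga6, Itgav and Itgb1 only as deposited.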

How the data were processed

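RNA sequencing gave 6 libraries of mouse ovary. The authors deposited FPKM values, a column per library. Per the submitters' processing notes, fastp, HISAT2, HTSeq, R 3.2.0, DESeq2 and mm10 were used, with no roles given. The annotation and the strand setting are not stated in the labels.

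Groups came from sample titles. Whole reads were worked back from the FPKM (100.0% of genes whole, tolerance 0.01 read), which gave depth and gene length. limma 3.58.1 in R 4.3.3 tested log2(FPKM + 0.5) on genes averaging 1 FPKM or more (empirical Bayes with intensity trend, two-sided, Benjamini-Hochberg over all tested genes, threshold 0.05), tested on simulated data. The length trend was a loess fit (span 0.5) within each library. Tables and figures used Python 3.11.15, pandas 2.3.3 and matplotlib 3.10.9. Positions are from GENCODE M21 (GRCm38, as mm10). Alternatives were other pseudocounts, filters and scalings, voom, the length trend, a replicate block and leaving out each library.

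Members and gene lists were chosen with earlier results of these data known. Values in every library are given for members with an unadjusted p under 0.05 or among the 3 highest of a class, and of each partner list the 4 genes with the smallest p are named. Outside that rule, and picked with their values in view, are the library values of Itgb2, Itga8, Itgam, Itgax and Lama3, the single markers, Smoc2, Nid2, Fn1, Icam2, Krt5, Ilk, Ptk2, Fermt2 and Tns2. The values of 1 tested member are not reported here; counts and medians over the members include it.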

Additional observations from a re-analysis of the deposited data

How the results depend on the processing

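The count of all genes past the adjusted threshold was 0 in the main test and 8 with a mean FPKM of at least 5, 11 with the replicate block, 120 with voom and 22 with voom and the length trend removed. Among members it was 0, and 1 with voom (Lamc1). Members lower at an unadjusted p under 0.05 numbered 6, then 11 after TPM rescaling, 10 with voom, 2 with the length trend removed, 3 with both of these and 3 to 5 with single libraries left out (3 without Control replicate 3). Among all 12922 tested genes 999 were lower at that p in the main test, 1195 with voom and 765 with the length trend removed. In the other settings all genes were not counted. With a mean FPKM of at least 5, all 15 members left were lower. The members' median of −0.11 was −0.09 with that filter, −0.17 after TPM rescaling, −0.07 with the length trend removed, with and without voom, and −0.16 to −0.10 with single libraries left out. TPM rescaling put the median of all genes at −0.05.

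In the partner lists, voom called 1 adhesion gene and 3 basement membrane genes, and the replicate block called 1 of the latter. The adhesion median was −0.12 after TPM rescaling and −0.09 to −0.05 with single libraries left out. The basement membrane median was −0.13 with a pseudocount of 1, −0.14 with a mean FPKM of at least 5, −0.20 after TPM rescaling, −0.08 with the length trend removed, with and without voom, and −0.15 to −0.11 with single libraries left out. With voom and the length trend removed, 0 genes of either list were called. The hemidesmosome median of −0.09 was −0.14 after TPM rescaling and −0.17 to −0.07 with single libraries left out. The median of other ligands was −0.05 after TPM rescaling and −0.06 to −0.00 with single libraries left out.

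Of 24 tested members 18 kept their sign under every alternative run for them, of 16 in all; members averaging under 5 FPKM have no value with that filter. With the length trend removed, Itgb3 was at 0.03, Itgb8 at 0.00, Lama5 at 0.02 and Lamb1 at 0.01, and likewise 0.03, 0.02 and 0.01 for Itgb3, Lama5 and Lamb1 with voom. With single libraries left out, Itga11 ranged from −0.16 to 0.00, Itga4 from −0.05 to 0.18, Itgb3 from −0.08 to 0.05, Itgb8 from −0.13 to 0.00, Lama5 from −0.16 to 0.03 and Lamb1 from −0.07 to 0.00. Of 16 named partner genes 14 kept their sign. Dst was at 0.02 with the length trend removed and 0.04 with voom as well, and Krt14 ranged from −0.19 to 0.17 with single libraries left out. The cause of these shifts was not tested. The Lamc1 to Lamb1 ratio, ISRIB minus Control, was −0.0975, and −0.113 to −0.0771 with single libraries left out, a check chosen after seeing the data.

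The deviations of libraries with the same replicate number correlated with r = −0.190, −0.0910 and 0.192. Whether such libraries were matched is not stated in the labels, and so few libraries cannot decide it. Control replicate 2 correlated best with ISRIB replicate 1, at 0.355. With the replicate block 6 members were lower at an unadjusted p under 0.05, and Lamc1 and Itga6 had adjusted p values of 0.0761 and 0.0526 by limma. The block changed no member's call. Depth limits the 11 members below a mean FPKM of 1, which had 0 to 293 reads a library.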

Other observations

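Itga2b, the platelet integrin subunit that the symbol rule leaves out, was at 0.600, 0.371 and 0.386 FPKM in Control and 0.528, 0.585 and 0.693 FPKM in ISRIB, with the groups overlapping. The platelet factor gene Pf4 was at 4.14, 4.65 and 5.17 FPKM in Control and 8.74, 5.02 and 4.19 FPKM in ISRIB, with ISRIB replicate 1 the highest.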
